A study of Mus musculus with 10 samples.

Results

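Retinoid metabolism was followed through 9 genes in the bone marrow (BM) of mice reconstituted with fetal liver hematopoietic stem cells (FL-HSCs). The 9 genes, out of 19938 measured on probe sets that list 1 gene, were Rbp4, Stra6, Adh1, Rdh10, Aldh1a1, Aldh1a2, Aldh1a3, Cyp26b1 and Rarb. They were chosen by name, and each was to be represented by its brightest probe set. Each had exactly 1 single-gene probe set, so brightness selected nothing. The list was nevertheless drawn up with earlier results of these arrays known, and the values and p-values of its members are therefore given as a description.

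The 2 groups of 5 arrays were compared. VD(−) arrays held BM RNA of mice that had received FL-HSCs from embryos of dams on a vitamin D-deficient diet, and VD(+) arrays held BM RNA of mice that had received FL-HSCs from embryos of dams on a sufficient diet. All donors and recipients were C57BL/6 mice. The study's methods describe donor cells pooled from male and female embryos, and lethally irradiated recipients of either sex. Recipients were vitamin D sufficient in both groups. Only the FL-HSC donor therefore differed in vitamin D status. Each group comprised 3 single samples, called replicates 1 to 3, and 2 pools. Whether a pool drew on the same mice as the single samples is not stated, so p-values here speak of the scatter among arrays, which may be technical in part. The labels give 8 weeks as the age of the mice. By the study's methods recipients were already 8 weeks old at transplant, so this is not their age at collection. The study states more than 1 time of collection after transplant. Engraftment was scored on blood leukocytes, and the stroma of recipient BM remains largely that of the host.

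Retinoids are vitamin A and its derivatives. Retinol circulates bound to a carrier, enters cells, is oxidized reversibly to retinaldehyde and then irreversibly to retinoic acid, which acts through nuclear receptors and is cleared by cytochrome P450 enzymes of the CYP26 family. The vitamin D receptor and the retinoic acid receptors share the retinoid X receptors (RXRs) as partners, and retinoic acid is known for its influence on myeloid differentiation and on the dormancy of hematopoietic stem cells.

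Retinoic acid receptors are known to bind direct repeats of a short motif, and the best described of these elements separates the repeats by 5 bases (DR5). The DR5 letters searched, on either strand, were GGTCANNNNNNGGTCA, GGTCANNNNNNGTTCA, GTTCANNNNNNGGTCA and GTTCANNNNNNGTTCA. Within windows of 300 bases around RefSeq start sites (GRCm38.p6), 81 of 32851 promoters held a match, or 0.247%. Of the members, 7 had 12 promoters in this set, and 1 of the 12, that of Rarb, held a match. Rdh10 and Aldh1a3 had no promoter in this set and could not be searched. Among the other genes of the pathway described below, Cyp26a1 also held one. Repeats separated by 1 base (DR1) or 2 bases (DR2) were searched with the same repeat letters and were in 0.402% and 0.399% of all promoters, in none of the 12 of the members, and, among the other pathway genes, in that of Bco1 (a DR1). The DR5 of Rarb lay 52 to 37 bases before the start on the plus strand of the gene, and that of Cyp26a1 lay 32 to 17 bases before the start on its minus strand. The 250 bases before the start are printed for these 2 genes, whose DR5 is in capitals, and for Adh1 and Aldh1a2, the members with the largest differences between the groups, which hold no match in their windows.
Rarb, chr14:16575477-16575726, minus strand: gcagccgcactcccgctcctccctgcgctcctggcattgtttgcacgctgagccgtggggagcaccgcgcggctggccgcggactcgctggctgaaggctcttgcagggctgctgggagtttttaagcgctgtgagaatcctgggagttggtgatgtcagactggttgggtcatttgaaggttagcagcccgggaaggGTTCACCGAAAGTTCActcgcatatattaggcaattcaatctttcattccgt
Cyp26a1, chr19:37697558-37697807, plus strand: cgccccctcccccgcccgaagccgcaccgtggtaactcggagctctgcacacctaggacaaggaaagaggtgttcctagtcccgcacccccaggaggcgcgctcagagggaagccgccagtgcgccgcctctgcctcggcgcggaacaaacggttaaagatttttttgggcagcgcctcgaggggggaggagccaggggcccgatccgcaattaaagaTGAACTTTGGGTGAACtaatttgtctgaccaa
Adh1, chr3:138277335-138277584, plus strand: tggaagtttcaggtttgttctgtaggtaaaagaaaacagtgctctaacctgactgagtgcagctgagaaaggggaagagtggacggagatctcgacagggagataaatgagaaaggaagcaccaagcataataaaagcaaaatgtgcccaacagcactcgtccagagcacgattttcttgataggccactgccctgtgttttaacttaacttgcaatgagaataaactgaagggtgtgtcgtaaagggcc
Aldh1a2, chr9:71215539-71215788, plus strand: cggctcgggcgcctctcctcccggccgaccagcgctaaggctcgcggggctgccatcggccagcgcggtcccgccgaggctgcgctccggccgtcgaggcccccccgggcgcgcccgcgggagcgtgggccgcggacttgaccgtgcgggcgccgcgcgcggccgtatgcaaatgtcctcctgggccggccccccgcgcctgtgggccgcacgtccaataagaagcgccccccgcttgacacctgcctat
The windows differ in composition, with 40 CpG pairs and 77.6% G and C before the start of Aldh1a2, against 5 CpG pairs and 44.8% before that of Adh1. A match is a description of letters, and nothing about a factor follows from its presence or absence.

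Of the 9 members, Adh1 and Aldh1a2 were higher in VD(−) BM at a nominal p under 0.05, and none was lower. No member passed a Benjamini-Hochberg adjusted p of 0.05 in limma. Of all 35556 probe sets tested, 3.85% had a higher and 3.23% a lower level at the nominal threshold, and 0.118% passed the adjusted one in either direction. Adh1 was also the 1 member whose 5 VD(−) arrays all lay above the 5 VD(+) arrays, a pattern found in this direction in 0.911% of all probe sets. Differences are given as VD(−) less VD(+) on the log2 scale. Their median over the 9 members was −0.035, with 4 above 0 and 5 below, and over all probe sets it was −0.0028.

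No detection call was used, and the means of 1023 probe sets of olfactory receptors, which BM is not known to use, served as a mark of low signal. Their median was 2.48 and their 95th percentile 3.98 on the log2 scale. Over the 10 arrays 7 of the 9 members averaged above that percentile, as did 29 of the 49 other pathway genes described below and 21914 of all 35556 probe sets. Aldh1a3, at a mean of 3.97, and Rarb, at 3.58, did not, and a difference in them may not be detectable on these arrays.

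**Figure D1:**
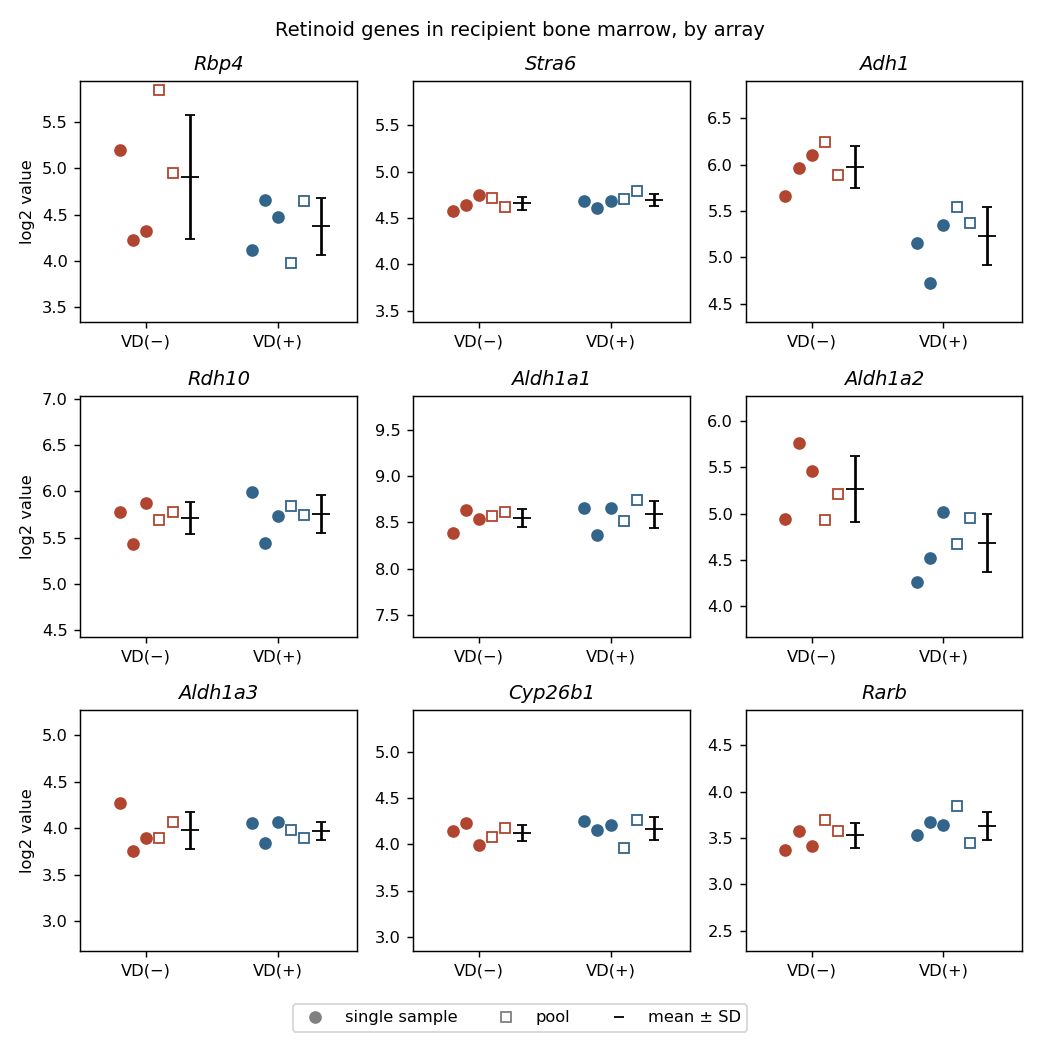
Log2 value of each member in every array, VD(−) left of VD(+), with filled circles for single samples, open squares for pools and black bars for the mean ± SD of 5 arrays. Every panel spans the same range of log2 units, Adh1 is the panel in which the groups do not overlap, and Rbp4 has the widest VD(−) spread, from 4.23 to 5.85.

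The genes that supply retinol to the cell differed little between the groups or varied widely within the VD(−) group. Rbp4 encodes the plasma carrier of retinol, made by liver and fat. Its log2 values were 5.20, 4.23 and 4.32 in VD(−) replicates 1 to 3 and 5.85 and 4.94 in the VD(−) pools, against 4.12, 4.65 and 4.47 in VD(+) replicates 1 to 3 and 3.98 and 4.65 in the VD(+) pools. In all, 3 VD(−) arrays were thus above every VD(+) array, and the other 2 fell within the VD(+) range. Rbp4 averaged 4.91 ± 0.67 in VD(−) and 4.37 ± 0.31 in VD(+) BM (SD, n = 5 each), a log2 difference of 0.53 with a 95% interval of −0.11 to 1.17 (limma adjusted p = 0.748). By an exact permutation test, two-sided, p was 0.151.

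Stra6, the membrane receptor that takes retinol from its carrier, had log2 values of 4.58, 4.64 and 4.75 in VD(−) replicates and 4.71 and 4.62 in the VD(−) pools, against 4.69, 4.61 and 4.68 in VD(+) replicates and 4.71 and 4.79 in the VD(+) pools. The 2 groups overlapped almost completely. The log2 difference was −0.035 with an interval of −0.17 to 0.10 (limma adjusted p = 0.938), which was the narrowest among the members.

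Adh1 had the largest difference of the members and was higher in VD(−) BM in every array. It encodes a cytosolic alcohol dehydrogenase that oxidizes retinol as well as ethanol. Its log2 values were 5.66, 5.96 and 6.11 in VD(−) replicates 1 to 3 and 6.25 and 5.89 in the VD(−) pools, against 5.16, 4.72 and 5.35 in VD(+) replicates and 5.55 and 5.37 in the VD(+) pools. The lowest VD(−) array exceeded the highest VD(+) array. Adh1 averaged 5.97 ± 0.22 in VD(−) and 5.23 ± 0.32 in VD(+) BM (SD, n = 5 each), a log2 difference of 0.74 ± 0.16 (SE) or a ratio of 1.67, with a 95% interval of 1.31 to 2.13. The nominal p of limma was 0.000713 and its adjusted p was 0.216. The exact permutation p, two-sided, was 0.00794, the smallest that 5 arrays against 5 can give. In whole marrow a larger number of cells that express a gene and more RNA per cell cannot be told apart.

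Rdh10, the microsomal dehydrogenase that carries out most retinol oxidation in the mouse embryo, showed no such difference. Its log2 values were 5.78, 5.43 and 5.87 in VD(−) replicates and 5.69 and 5.78 in the VD(−) pools, against 5.995, 5.44 and 5.74 in VD(+) replicates and 5.85 and 5.75 in the VD(+) pools. The ranges overlapped, and the log2 difference was −0.043 with an interval of −0.30 to 0.21 (limma adjusted p = 0.963).

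The 3 retinaldehyde dehydrogenases of the list make retinoic acid, and of these Aldh1a2 was the one with higher values in VD(−) BM. Aldh1a2 is the enzyme of early embryonic retinoic acid synthesis. Its log2 values were 4.94, 5.77 and 5.46 in VD(−) replicates 1 to 3 and 4.93 and 5.21 in the VD(−) pools, against 4.26, 4.52 and 5.02 in VD(+) replicates and 4.68 and 4.95 in the VD(+) pools. VD(−) replicates 2 and 3 and VD(−) pool 2 were above every VD(+) array, and the other 2 VD(−) arrays overlapped with VD(+) replicate 3 and VD(+) pool 2. Aldh1a2 averaged 5.26 ± 0.36 in VD(−) and 4.69 ± 0.31 in VD(+) BM (SD, n = 5 each), a log2 difference of 0.58 ± 0.19 (SE) or a ratio of 1.49. The nominal p of limma was 0.0118, its adjusted p was 0.555, and the exact permutation p, two-sided, was 0.0476.

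Aldh1a1, a marker of many stem and progenitor cells, had log2 values of 8.39, 8.63 and 8.54 in VD(−) replicates and 8.57 and 8.61 in the VD(−) pools, against 8.65, 8.37 and 8.66 in VD(+) replicates and 8.51 and 8.74 in the VD(+) pools. The log2 difference was −0.038 with an interval of −0.22 to 0.15 (limma adjusted p = 0.955). Aldh1a7, a close rodent paralog of Aldh1a1 whose transcripts may share probes with it, differed by 0.033 with an interval of −0.38 to 0.44. Aldh1a3, which was not above the low-signal mark, ranged from 3.75 to 4.27 in VD(−) and from 3.84 to 4.07 in VD(+) arrays. Its values were 4.27, 3.75 and 3.90 in VD(−) replicates and 3.90 and 4.06 in the VD(−) pools, against 4.06, 3.84 and 4.07 in VD(+) replicates and 3.98 and 3.90 in the VD(+) pools, so that the groups overlapped throughout. The log2 difference was 0.0078, from −0.21 to 0.23.

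For clearance and reception, the members Cyp26b1 and Rarb showed no difference between the groups beyond the spread of the arrays. Cyp26b1 encodes a hydroxylase that inactivates retinoic acid. Its log2 values were 4.14, 4.23 and 3.999 in VD(−) replicates and 4.08 and 4.17 in the VD(−) pools, against 4.25, 4.16 and 4.21 in VD(+) replicates and 3.97 and 4.27 in the VD(+) pools. The difference was −0.046 with an interval of −0.22 to 0.12 (limma adjusted p = 0.933). The mean of Cyp26b1 over all arrays, 4.15, was close to the low-signal mark of 3.98. Rarb, a retinoic acid receptor whose own promoter carries the DR5 printed above, had log2 values of 3.37, 3.58 and 3.42 in VD(−) replicates and 3.69 and 3.58 in the VD(−) pools, against 3.54, 3.67 and 3.64 in VD(+) replicates and 3.85 and 3.45 in the VD(+) pools. The groups overlapped, the difference was −0.10 with an interval of −0.31 to 0.10 (limma adjusted p = 0.851), and all values lay below the low-signal mark.

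The 3 members with the widest spread did not share one pattern over the arrays. In Rbp4 the high VD(−) arrays were replicate 1, pool 1 and pool 2. The same 3 arrays had Y-linked signal, with mean log2 values of Kdm5d, Eif2s3y and Uty of 6.64, 6.80 and 5.31, against 2.35 and 2.44 in VD(−) replicates 2 and 3 and 2.25 to 2.56 in the VD(+) arrays. Y-linked signal was thus present in 3 of 5 VD(−) and 0 of 5 VD(+) arrays. The methods describe donor pools of both sexes, yet no VD(+) array had Y-linked signal, and the reason was not tested. The labels do not give the sex of the mice behind each array.

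Of 4 adipocyte genes, Cidec and Fabp4 were above every VD(+) array in VD(−) replicate 1, pool 1 and pool 2. Plin1 was not, at 4.82 in VD(−) pool 2 against 4.60 to 5.03 in the VD(+) arrays. Lep, which was not above the low-signal mark, differed by −0.017 between the groups. Cidec, a lipid droplet protein, read 6.22, 4.30 and 4.92 in VD(−) replicates 1 to 3 and 7.30 and 6.29 in the VD(−) pools, against 4.41 to 5.20 in the VD(+) arrays. The mean of 4 adipocyte genes, of which 3 were above the low-signal mark, spanned 5.48 to 6.70 in VD(−) and 5.53 to 5.87 in VD(+) arrays. None of the 4 passed a nominal p of 0.05 between the groups. Over the 10 arrays, as deviations from the group means, the correlation of Rbp4 was 0.888 with the adipocyte genes and 0.825 with the Y-linked genes, and it was 0.872 with osteoblast genes and 0.81 with macrophage genes. Rbp4 also correlated at 0.781 with endothelial, 0.739 with reticular stroma and 0.673 with hematopoietic genes, so this was not particular to fat. With Xist the correlation was −0.772, with stellate cell genes −0.663 and with muscle genes −0.008. The Y-linked mean spanned only 2.25 to 2.56 in VD(+) arrays, so correlations of any member with it rest mainly on the VD(−) arrays. The part of fat, of sex or of other cells in the Rbp4 values was not tested.

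Without the 3 arrays with Y-linked signal the log2 difference of Rbp4 was −0.10, and without VD(−) pool 1 alone it was 0.30. Between the pools it was 1.09 and between the single samples 0.16. Aldh1a2 went the other way. Its correlations were −0.708 with the adipocyte genes and −0.731 with the Y-linked genes, and its difference was 0.93 without those 3 arrays (limma adjusted p = 0.515). It was 0.79 between the single samples and 0.26 between the pools, where the nominal limma p was 0.198, and the gap between these estimates was not tested.

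Of these 3 genes Adh1 varied least with the arrays used. Its log2 difference was 0.83 between the single samples, 0.61 between the pools and 0.80 without the arrays with Y-linked signal, and its correlations with the adipocyte and Y-linked genes were 0.069 and −0.081. With reticular stroma genes its correlation was 0.522. Of the 9 stroma genes, all above the low-signal mark, 2 were higher in VD(−) BM at a nominal limma p under 0.05, namely the chemokine gene Cxcl12 (0.24) and the leptin receptor gene Lepr (0.33), against 3.85% of all probe sets. Of the 9 differences 6 were above 0 and 3 below, among them Foxc1 (−0.14) and Pdgfra (−0.12), and their median was 0.11. The largest was 0.53 for Adipoq, with an interval of −0.11 to 1.16 (limma adjusted p = 0.748). Adipoq read 9.035, 9.43 and 8.64 in VD(−) replicate 1, pool 1 and pool 2, against 7.72 to 8.63 in the VD(+) arrays. These are the same VD(−) arrays in which Cidec and Fabp4 were above every VD(+) array. The mean level of the 9 spanned 6.38 to 6.80 in VD(−) and 6.26 to 6.60 in VD(+) arrays. The part of stroma in the Adh1 values was not tested.

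**Figure D2:**
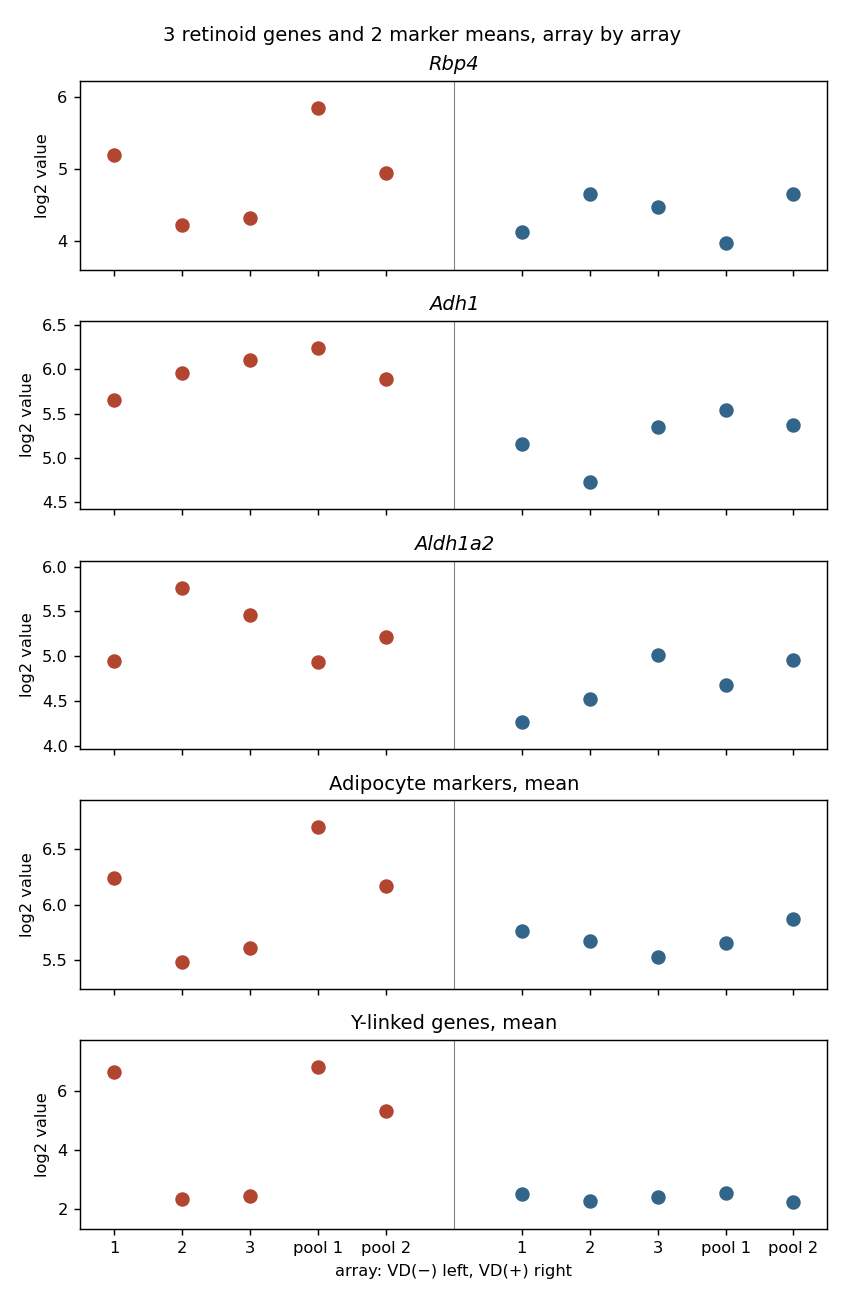
Log2 values of Rbp4, Adh1 and Aldh1a2, and mean log2 values of 4 adipocyte and 3 Y-linked genes, in each array with the VD(−) arrays left of the VD(+) arrays. Rbp4, the adipocyte mean and the Y-linked mean are all high in VD(−) replicate 1, pool 1 and pool 2, whereas Aldh1a2 peaks in VD(−) replicate 2 at 5.77.

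**Figure D3:**
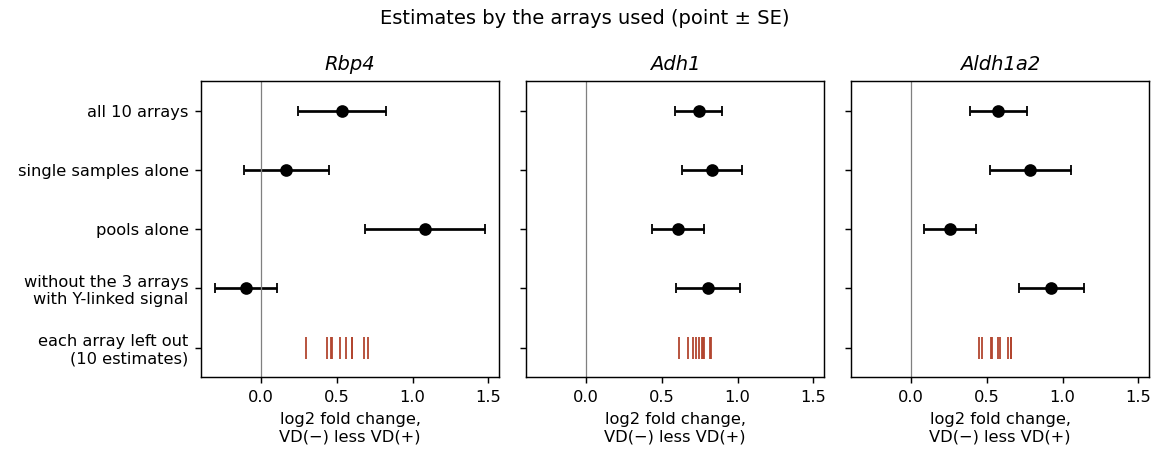
Log2 difference, VD(−) less VD(+), for Rbp4, Adh1 and Aldh1a2 with all 10 arrays and with subsets of them, as points with the SE of limma, and as ticks when each array is left out in turn. Adh1 stays between 0.61 and 0.83 in all of these, and Rbp4 spans −0.10 to 1.09.

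Among members, the deviations of Adh1 correlated at 0.80 with those of Stra6 and at 0.61 with those of Aldh1a1 over the 10 arrays, and Rbp4 correlated at −0.50 with Aldh1a2. Among 18756 genes the deviations closest to those of Rbp4 were of Kif4 (0.978), Hmox1 (0.969) and Ulk3 (0.966). Closest to Aldh1a2 were Hsd17b7 (0.975), Klc4 (0.932) and Dnajc30 (0.928), and closest to Adh1 were Lcn8 (0.952), Pramel27 (0.947) and Clvs2 (0.925). None of these 9 genes differed between the groups at an adjusted p of 0.05 in limma. Ranked among so many genes over 10 arrays, these correlations are a description and carry no test.

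The rest of the pathway was taken from a list by role. Of 52 further genes 49 were measured on single-gene probe sets, and 5 were higher and 1 lower in VD(−) BM at a nominal p under 0.05, against 3.85% and 3.23% of all probe sets. None passed the adjusted threshold in limma, and their median difference was 0.031. Among 8 genes of transport and binding, Fabp5, a lipid chaperone that can carry retinoic acid to the nucleus, was higher. Its 5 VD(−) arrays ranged from 6.83 to 7.50 and its VD(+) arrays from 6.16 to 6.86, which overlapped by 1 array on each side. The log2 difference of Fabp5 was 0.61 ± 0.15 (SE, limma adjusted p = 0.328), and a second Fabp5 probe set gave 0.62. Crabp2, the cellular carrier that delivers retinoic acid to its receptors, was the 1 gene that was lower at the nominal threshold, between 3.89 and 4.09 in VD(−) and between 4.06 and 4.23 in VD(+) arrays (log2 difference −0.17, limma adjusted p = 0.659). Its level was close to the low-signal mark of 3.98, with a mean of 4.06 over all arrays and 3.97 in VD(−) arrays. Rbp7, a cellular retinol-binding protein, differed by 0.28 with an interval of −0.27 to 0.82.

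None of the 7 genes of storage and release passed the nominal threshold. The widest differences were 0.25 for Dgat1, which can esterify retinol as well as build triglyceride, and −0.17 for Bco2, a carotenoid-cleaving enzyme that was not above the low-signal mark. Of 17 other oxidizing and reducing enzymes, Rdh11, a microsomal retinaldehyde reductase, was higher at the nominal threshold, with 5.44 to 5.68 in VD(−) and 5.26 to 5.55 in VD(+) arrays (log2 difference 0.20, limma adjusted p = 0.649). Rdh16 differed by 0.32 and Rdh13 by −0.22, and the intervals of both included 0. Rdh16, at a mean of 2.87, was not above the low-signal mark. The other CYP26 hydroxylases, Cyp26a1 and Cyp26c1, differed by 0.0094 and 0.17 without passing the nominal threshold. Cyp26a1, whose promoter carries the second DR5 printed above, averaged 3.17 in VD(−) and 3.17 in VD(+) arrays and was not above the low-signal mark. None of the 5 other receptor genes passed. Rxrg, which was not above the low-signal mark, differed by −0.10 and Rara by −0.081, and Rxra, which also partners the vitamin D receptor, by 0.031.

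Of 10 measured genes known to be induced by retinoic acid, 3 were higher in VD(−) BM at the nominal threshold and none was lower, where 3.85% of all probe sets were higher. The list is short, its median difference was 0.027, and it was not tested as a group. In 2 of the 10 the groups did not overlap, as in 0.911% of all probe sets. Tgm2, a transglutaminase induced in myeloid cells, ranged from 6.16 to 6.49 in VD(−) and from 5.77 to 6.07 in VD(+) arrays, and the groups did not overlap. Its log2 difference was 0.35 ± 0.087 (SE, limma adjusted p = 0.33). Asb2, a ubiquitin ligase subunit first described in retinoic acid-treated leukemia cells, ranged from 5.08 to 5.19 in VD(−) and from 4.66 to 4.98 in VD(+) arrays, again without overlap, and differed by 0.26 (limma adjusted p = 0.48). Ccr9, a gut-homing chemokine receptor, overlapped between the groups, with 4.61 to 5.49 in VD(−) and 4.24 to 4.91 in VD(+) arrays, and differed by 0.43 (limma adjusted p = 0.649). The other 7, among them Stra8 at −0.20 and not above the low-signal mark, did not pass. All 3 are expressed in leukocytes, and the part of the mix of cells in their values was not tested.

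**Figure D4:**
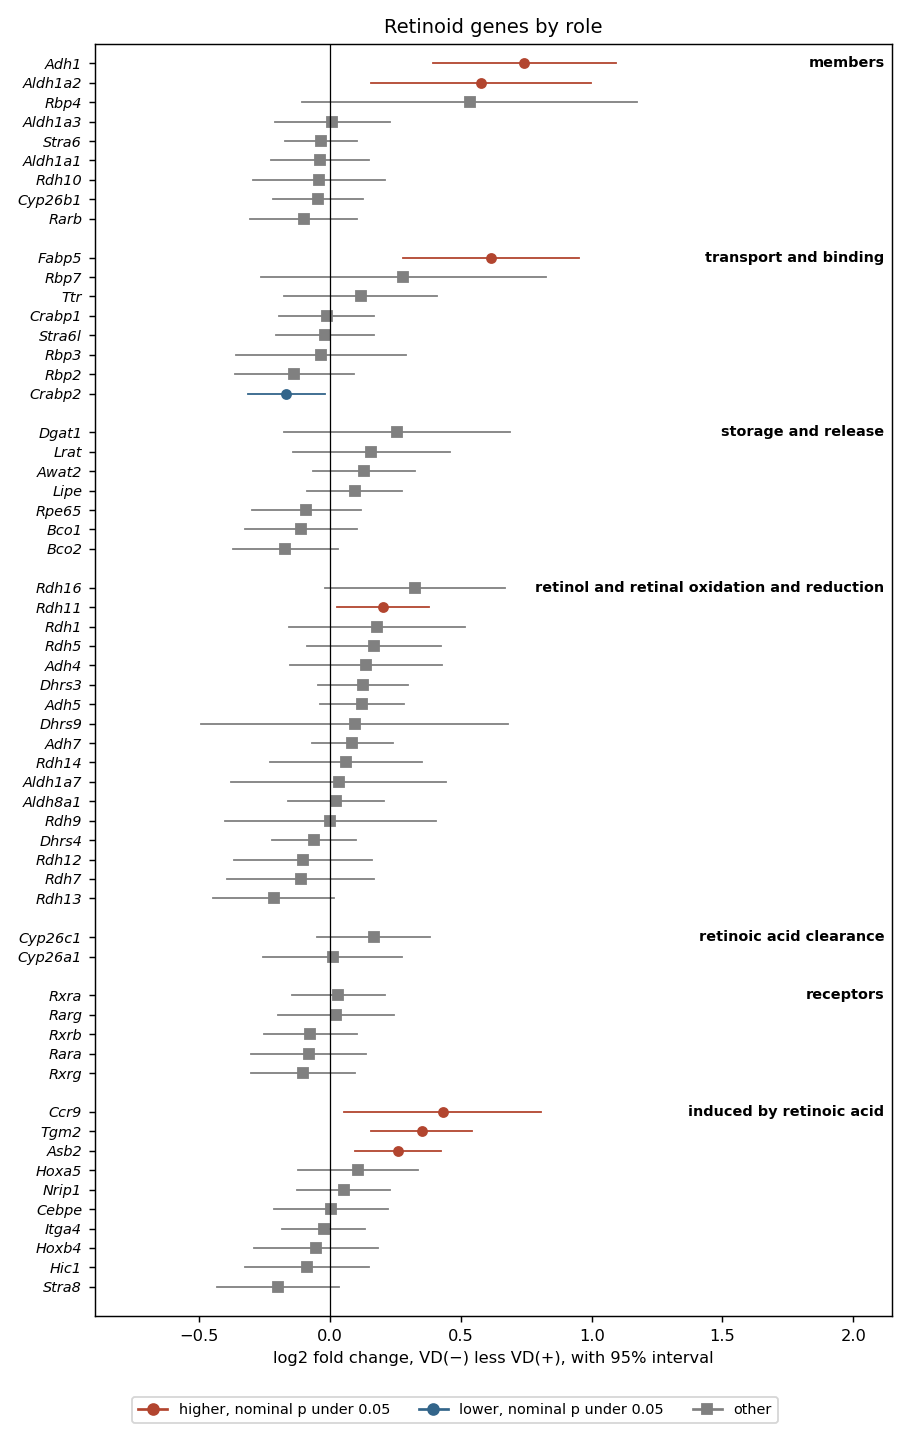
Log2 difference, VD(−) less VD(+), with its 95% interval from limma for the 9 members and 49 other retinoid genes grouped by role, where round red points are higher and round blue points lower at a nominal p under 0.05 and grey squares are neither. Adh1 has the largest value at 0.74, Fabp5 follows at 0.61, and every receptor interval includes 0.

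The array medians lay between 4.74 and 4.80. Markers of whole marrow were present in both groups, with all 6 measured hematopoietic genes and all 8 macrophage genes above the low-signal mark. Since Mpo and S100a8 of granulocytes and Cd79a and Vpreb1 of B lineage cells were among them, the RNA was not of macrophages alone, although one label names BM macrophages. Of the 8 macrophage genes 1, Cd68, was higher at a nominal limma p under 0.05 (log2 difference 0.27), against 3.85% of all probe sets. All 8 differences were above 0, with a median of 0.19 and the smallest 0.022 (Csf1r). Of all 35556 probe sets 17464 had a difference above 0, and the median was −0.0028. The 8 genes are markers of 1 cell type and were not tested as a group. The mean of the 8 genes spanned 8.05 to 8.57 in VD(−) and 7.78 to 8.20 in VD(+) arrays. VD(−) pool 2 stood apart by its muscle genes, with a mean of 7.54 against at most 5.11 in the VD(+) arrays, and without that pool the log2 difference was 0.76 for Adh1, 0.59 for Aldh1a2 and 0.52 for Rbp4. Endothelial genes spanned 5.75 to 6.15 in VD(−) and 5.61 to 5.99 in VD(+) arrays, with none of 6 past the nominal threshold, and none of 5 osteoblast genes passed. Of 3 genes of retinoid-storing stellate cells, Reln was lower in VD(−) BM at the nominal threshold (log2 difference −0.42, limma adjusted p = 0.648), against 3.23% of all probe sets. Hand2 differed by −0.16 and Lrat, in the other direction, by 0.16, and the intervals of both included 0. Lrat was not above the low-signal mark.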

How the data were processed

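Total RNA of recipient BM was amplified and hybridized to 10 arrays. The study's methods speak of a miRNA array, but the probe sets are those of a mouse whole-transcript gene array. The deposited values are log2 intensities that the authors made in Partek, with RMA according to the submitters' processing notes, which corrects background, equalizes the distributions of the arrays and summarizes probes. Filters and the genome build were not given in the sources used here. All columns of the table were used (0 left out).

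Genes were named from the platform annotation, which can be old: 21789 of 35556 probe sets list 1 gene, 1621 several and 12146 none. All 9 member symbols matched a current RefSeq gene table by gene identifier. Where a gene had more than 1, its brightest probe set represented it. Groups came from the sample labels. Differences were fitted by limma 3.58.1 (lmFit, then eBayes; R 4.3.3) to all 35556 probe sets, two-sided, with Benjamini-Hochberg adjustment. Single members were also tested by exact permutation over the 252 splits of 5 against 5. No array pair was identical (0 pairs), and precision is limited by the number of arrays. The procedure was tested on simulated data.

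The members and lists were chosen with earlier results of these data known. The text names all members, pathway genes at a nominal p under 0.05, the 2 widest differences of each role, and for the 3 members with the widest spread above the low-signal mark the 3 genes most alike. Other named genes, such as Aldh1a7, Rxra, Stra8, Cd68, Cidec and those of the marker lists, were chosen after their values were seen. Of the listed genes, some, among them Cd38, Hbb-b1, Hba-a1, Bglap, Cfd and Ddx3y, were not analysed here. Alternatives were the methods' t-test, brighter probe sets alone, cyclic loess, array weights, a trended and robust spread, pool or single as a covariate, singles or pools alone, arrays without Y-linked signal, the Y-linked mean minus Xist as covariate, a replicate block, all probe sets of a gene, single-gene probe sets alone and each array left out.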

Additional observations from a re-analysis of the deposited data

How the results depend on the processing

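No member passed an adjusted p of 0.05 in limma or the methods' t-test under any of 23 alternatives. Adh1 stayed at a nominal p under 0.05 in all 23, with log2 differences of 0.61 to 0.83 and adjusted p of 0.107 to 0.923. Aldh1a2 did so in 22, with 0.26 to 0.93 and adjusted p of 0.192 to 0.984, and lost it between the pools alone. Rbp4 reached it between the pools and without VD(−) replicate 2 (0.70) or 3 (0.68). Rbp4, Stra6, Aldh1a3, Cyp26b1 and Rarb gave no value among the brighter probe sets.

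Directions turned for Rbp4 without the arrays with Y-linked signal (−0.10) and with the Y-linked covariate (−0.079). Aldh1a3 turned among the single samples (−0.016), without those arrays (−0.14) and with the covariate (−0.13), and spanned −0.067 to 0.064 when each array was left out. Aldh1a1 was 0.017 with the covariate and spanned −0.092 to 0.0025 with each array left out, Rdh10 spanned −0.12 to 0.027, and Cyp26b1 was 0.0088 between the pools. The cause was not tested.

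Among the 49 other pathway genes, 5 were higher and 1 lower at a nominal p under 0.05. The lower count was 0 among brighter probe sets, with a trended and robust spread, among single samples, among pools and with the replicate block, 2 without the arrays with Y-linked signal, 3 with the covariate and 0 to 3 with each array left out. Crabp2, the 1 lower gene, was not among the brighter probe sets and could not be counted there. The higher count was 3 among single samples, 7 with the covariate and 3 to 6 with each array left out, 3 being without VD(−) replicate 3 or VD(+) replicate 2. The lower count was 0 without VD(−) replicate 2 or 3, 3 without VD(−) replicate 1, and 2 without VD(−) pool 1 or VD(+) pool 1.

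With the replicate number as a replicate block the adjusted p was 0.284 for Adh1 and 0.573 for Aldh1a2. Deviations of arrays with one number correlated at −0.052 to 0.061, so the numbers were not taken to pair the arrays. The estimates from single samples and from pools rest on 3 and 2 arrays a group.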
